A study of Mus musculus with 16 samples.

Results

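The genes described here encode potassium channels and the voltage-gated sodium and calcium channels of the mouse. They were taken as every row of the deposited expression table whose gene name begins with Kcn and a family letter (leaving out the antisense transcript Kcnq1ot1), or reads Scn, a number and a or b, or begins with Cacna, Cacnb, Cacng or Cacnn. This rule found 134 of the 27807 rows, with 131 names, since Kcnb2, Kcnh8 and Scn8a each had 2 rows. The sodium channel gene Scn2a is named Scn2a1 in the deposited rows, so the rule did not match it and it is not counted here. Of the 134 rows, 95 had a mean of at least 10 normalised counts over all libraries and were tested, among 16124 genes tested in all.

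Polyadenylated RNA had been sequenced from mouse ESCs and from embryoid bodies (EBs, floating aggregates of differentiating ESCs) in 16 libraries, 2 in each of 8 groups. The groups were WT (genotype Taf4+/+) and Taf4a-/- (genotype Taf4-/-) at 4 stages, namely undifferentiated ESCs (ES), EBs before retinoic acid (RA) was given (EB4), EBs after the first day of RA (EB5) and EBs later in RA (EB8), which the labels call neural precursor cells. The Taf4a protein is part of TFIID, a complex that helps RNA polymerase II start at promoters, and the comparisons ask what its loss changes while ESCs are driven towards neurons. The null allele was germ line and thus present in all cells of the mutant lines, which were derived from blastocysts of crosses of heterozygous mice, with a pair of lines per genotype per the study, and ESCs were grown on inactivated fibroblast feeders in both genotypes. The labels do not state that a replicate number marks a line, so the p-values measure only the spread between these libraries.

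Ion channels set the electrical state of a cell. Voltage-gated sodium and calcium channels open when the membrane depolarises and let cations in, whereas potassium channels let potassium out and bring the membrane back towards rest, and pore-forming alpha subunits are tuned by auxiliary subunits that alter gating and traffic to the surface. Two-pore and inward rectifier potassium channels are open near rest and set the resting potential, also in cells that fire no action potential, and the set of channels is known to change as progenitors become neurons.

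The recovered depth was 22442118 to 40711826 reads per library, and all ES libraries were deeper than all EB libraries. Reads in channel genes made up 0.0383% to 0.0823% of a library (10030 to 22789 reads), and between 91 and 110 of the 134 rows lay above a floor of 3 reads. Over the whole gene, Taf4a read 1591 to 1960 normalised counts in WT and 1973 to 2400 in Taf4a-/-, so the gene total does not check the labels, as the null allele lacks exons and exons were not resolved. Libraries of a group also differed in the level of whole chromosomes, taken as the median log2 deviation of a chromosome's genes. Chromosome X stood at 0.35 to 0.54 in WT ES replicate 2 and in all Taf4a-/- replicate 2 libraries, and below 0 in the others. Chromosome 8 stood at 0.40 to 0.41 in the first WT replicate of each EB stage and at most at 0.03 elsewhere. Chromosome 11 stood at 0.18 to 0.28 in Taf4a-/- replicate 1 libraries and at most at 0.03 elsewhere. Of the 95 channel genes tested, 17 lie on these chromosomes, and counts without them are given where they matter. Neuronal markers (Tubb3, Dcx, Elavl3, Elavl4, Stmn2, Snap25, Nefl, Rbfox3 and Slc17a6) summed to 18069 to 23987 normalised counts in WT EB8 and 1553 to 1628 in Taf4a-/- EB8, and neural progenitor markers to 29740 to 31852 and 4921 to 5045. The neuronal sum was also 9213 to 9448 in WT ES and 10336 to 11063 in Taf4a-/- ES, where Stmn2 read 5303 to 6491. It thus does not by itself measure neuronal content. WT EB8 thus held progenitor and neuronal markers together, and the 7 progenitor markers in Taf4a-/- EB8 ran from Fabp7, at 3.2 and 1.1, to Nes, at 2831 and 3312. Among the WT libraries, WT ES replicate 2 also stood apart in reading 0 for the Y-linked gene Ddx3y. WT ES replicate 1 read 1237 and the WT EB libraries 173.6 to 572.3. The Taf4a-/- libraries read 0 to 35.9, so at EB4, EB5 and EB8 the level of Ddx3y and genotype cannot be told apart. Counts of channel genes called that rest on WT ES replicate 2 are also given without it.

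In WT cells, differentiation moved the channel genes in both directions. From ES to EB8, 24 of 95 channel genes rose (25.3%, against 24.0% of all genes tested) and 17 fell (17.9%, against 22.8%), by limma on log2(normalised count + 1) with a Benjamini-Hochberg adjusted p under 0.05 over all genes tested. The median log2 change was 0.11 for the channel genes and 0.009 for all genes. Under quantile normalisation the split of calls was 18 higher and 19 lower, and without WT ES replicate 2 it was 26 and 13. Over all genes, quantile normalisation called 3541 higher and 4105 lower, against 3875 and 3673 in the main fit. By family, pore-forming calcium channel genes counted 4 higher and 1 lower of 9, their auxiliary subunits 5 and 2 of 12, pore-forming voltage-gated potassium channel genes 6 and 5 of 32, two-pore channel genes 2 and 4 of 7, and inward rectifier genes 3 and 1 of 8.

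**Figure D1:**
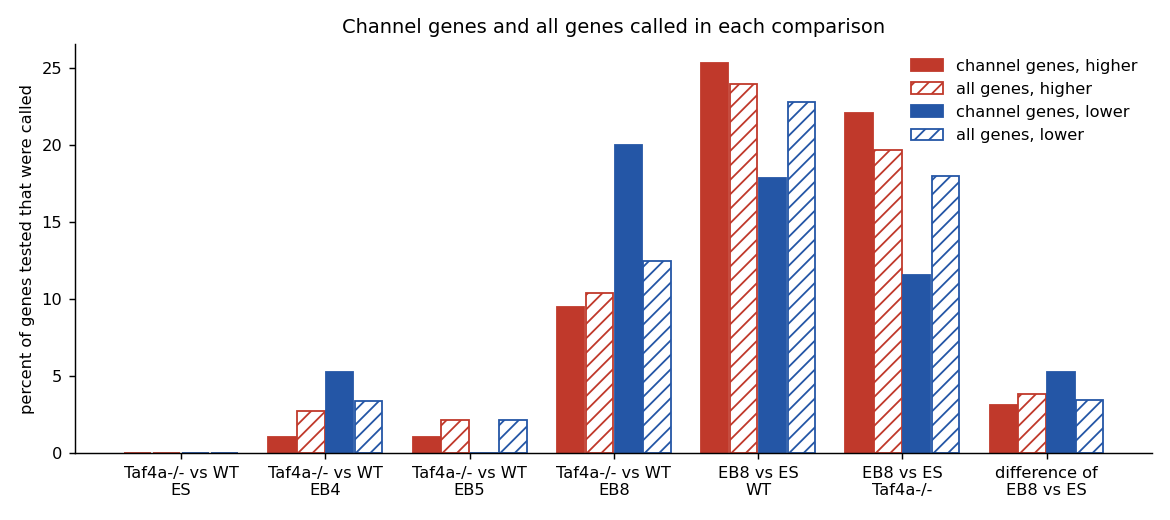
Percent of genes tested that were called higher (red) or lower (blue) in each comparison (limma, adjusted p under 0.05), for the 95 channel genes (filled bars) and for all 16124 genes tested (hatched bars). At EB8, 20.0% of the channel genes were lower in Taf4a-/-, against 12.5% of all genes.

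The 3 largest rises in WT were those of Kcnk10, Kcnc1 and Cacna2d3. Kcnk10 and Cacna2d3 reached the mean of 10 needed for a test only through their WT EB8 libraries. Their rise in WT and their lower level in Taf4a-/- EB8 are thus not independent of that filter. With no filter, both genes were still called in both of these comparisons. Kcnc1, a delayed rectifier of fast-spiking neurons (chr7:53651867-53693745, plus strand, NCBI37), read 3.6 and 6.4 normalised counts in WT ES, 15.3 and 65.4 in EB4, 109 and 32.9 in EB5 and 253 and 288 in EB8. Its values were higher at EB4 than at ES already, and both EB8 libraries lay above all earlier WT libraries (log2 change from ES to EB8 5.53 ± 0.71 (SE) with an adjusted p of 8.08e-05). Kcnk10, a two-pore channel opened by stretch and lipids (chr12:99672204-99816150, minus strand), stayed at 0 to 2.2 normalised counts in the 6 WT libraries before EB8 and read 78.8 and 119.6 at EB8. Only at EB8 did it leave the floor, and its log2 change was 6.15 ± 0.97 (SE) with an adjusted p of 0.000321. As WT ES held 1 read in all, the ratio of reads was 233, with a lower limit of 41.4 on the exact (Clopper-Pearson) 95% interval, which covers counting error only. Cacna2d3, an auxiliary alpha2-delta subunit of calcium channels (chr14:29718133-30535050, minus strand), also stayed low until EB8, with 8.2 and 6.4 in WT ES, 1.9 and 22 in EB5 and 265 and 427 in EB8 (log2 change 5.36 ± 0.98 (SE) with an adjusted p of 0.000879).

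The next 5 rises were those of Kcnd3, Kcnj2, Cacna1h, Cacna1c and Kcnn1. Kcnd3, an A-type potassium channel, read 4.6 and 7.2 in WT ES and 154 and 199 in EB8 (log2 change 4.71 ± 0.72 (SE) with an adjusted p of 0.000263). Kcnj2, a strong inward rectifier, went from 6.4 and 3.2 to 152 and 93.2 (4.43 ± 0.69 (SE) with an adjusted p of 0.000301). Cacna1h, a T-type calcium channel that opens near rest, went from 67.4 and 98.9 to 1198 and 1342 (3.94 ± 0.48 (SE) with an adjusted p of 5.31e-05), and read 516 and 932 at EB4. In none of these 3 genes did ES and EB8 overlap, and the EB4 values of Cacna1h lay above its ES values before RA was given. Of the 95 channel genes tested, 62 showed no overlap between ES and EB8 in WT and 69 in Taf4a-/-. With 2 libraries a group, a lack of overlap thus adds little to a call, and its share over all genes was not counted. Cacna1c, the L-type calcium channel of heart and brain, read 12.7 and 20.7 in ES and 189 and 152 in EB8 (3.31 ± 0.56 (SE) with an adjusted p of 0.000511). Kcnn1, a small-conductance channel opened by calcium, read 48.2 and 94.9 in ES and 740.3 and 424 in EB8 (3.03 ± 0.47 (SE) with an adjusted p of 0.000279). None of the 8 largest rises (Kcnk10, Kcnc1, Cacna2d3, Kcnd3, Kcnj2, Cacna1h, Cacna1c and Kcnn1) lost its call when any one WT ES or WT EB8 library was left out.

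The largest fall in WT was that of Kcnh3. Kcnh3, an Elk-type channel known from the forebrain, read 169 and 172 normalised counts in WT ES, 20.8 and 37.5 in EB4, 21.6 and 20.9 in EB5 and 1.1 and 5.3 in EB8. Both ES values lay above every later value (log2 change from ES to EB8 -5.58 ± 0.62 (SE) with an adjusted p of 2.79e-05). Kcnn4, the intermediate-conductance calcium-activated channel of blood and epithelial cells, went from 44.6 and 36.7 to 3.2 and 1.1 (-3.83 ± 0.83 (SE) with an adjusted p of 0.00269). Cacng6, a gamma subunit related to that of skeletal muscle calcium channels, went from 76.5 and 158 to 13.7 and 7.4 (-3.32 ± 0.53 (SE) with an adjusted p of 0.000354). Kcng3, a silent subunit that modifies other potassium channels, was highest at EB4, with 229 and 174, between 55.5 and 38.3 in ES and 6.3 and 6.4 in EB8 (-2.69 ± 0.62 (SE) with an adjusted p of 0.00396). All 4 fell with no overlap between ES and EB8.

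Kcnj9, a G protein-gated inward rectifier, fell from 12.7 and 12 to 2.1 and 0 (-2.92 ± 0.64 (SE) with an adjusted p of 0.00283), and with 2 reads at EB8 the ratio of ES to EB8 reads was 11.7 (exact 95% interval 2.96 to 101). Its call was lost in the limma fit of only the compared groups (adjusted p 0.0597). The remaining 3 of the 8 largest falls were less firm, as each lost its call in some fits without 1 library. Of these, Kcna7 and Kcnc4 also lost it in the fit of only the compared groups, and Kcna7 with edgeR. Kcnk12, a two-pore channel, read 63.7 and 13.6 in ES, 88.8 and 344 in EB4 and 3.2 and 0 in EB8 (-3.91 ± 1.23 (SE) with an adjusted p of 0.0201), with 3 reads at EB8 and a ratio of 23.4 (7.74 to 116). Kcna7, a Shaker-type channel, read 41 and 37.5 in ES and 0 and 13.8 in EB8 (-3.39 ± 0.97 (SE) with an adjusted p of 0.013). Kcnc4, a rapidly inactivating relative of Kcnc1, read 31.9 and 169 in ES and 16.8 and 8.5 in EB8 (-2.52 ± 0.69 (SE) with an adjusted p of 0.00991). The call of Kcnk12 was lost without WT EB8 replicate 2 or WT ES replicate 1 (adjusted p 0.146 to 0.148). That of Kcna7 was lost without WT EB8 replicate 1 or WT ES replicate 1 (adjusted p 0.052 to 0.137), and that of Kcnc4 without WT EB8 replicate 2 or WT ES replicate 2 (adjusted p 0.0779 to 0.111). Of these libraries, WT ES replicate 2 holds the high value of Kcnc4.

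Levels per kb of exon ranked the channel genes differently from their changes. In WT ES the 4 highest means were those of Cacng7, a subunit that also serves AMPA receptors (768 normalised counts per kb), Kcnk1 (659), Kcnk5 (436) and Cacnb3 (284). Their values per library were 2215 and 1184 normalised counts for Cacng7, 1491 and 1543 for Kcnk1, 1058 and 1874 for Kcnk5 and 784 and 989 for Cacnb3. Per kb, the 2 libraries of Cacng7 (1002 and 535) lay on either side of those of Kcnk1 (647.9 and 670.5), and the lower of them met the range of Kcnk5 (314.7 and 557), so Cacng7 cannot be ranked against these neighbours. In WT EB8 the mean levels per kb were 631 for Cacng7, 558 for Cacnb3, 359 for Kcnh2, 275 for Kcnk1 and 156 for Kcnk5. The libraries of Cacng7 (563 and 698) overlapped those of Cacnb3 (515 and 601), and those of Kcnh2 (305 and 413) overlapped those of Kcnk1 (340 and 211), so neither pair can be ranked. Cacnb3, a beta subunit that carries calcium channels to the surface, read 1606 and 1875 there and rose in both genotypes (log2 change 0.98 ± 0.24 (SE) in WT and 1.33 ± 0.24 (SE) in Taf4a-/-, adjusted p 0.00574 and 0.00132). Cacng7 was not called in any comparison. Two-pore genes and auxiliary subunits thus led the list in ESCs, and Kcnh2 was the only pore-forming voltage-gated member among the genes listed for either stage.

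In ESCs no channel gene differed past the threshold. Between Taf4a-/- and WT at ES, limma called 0 channel genes (0% of all genes were called higher and 0% lower), 10 of 95 had an unadjusted p under 0.05 (10.5%, against 11.4% of all genes), and edgeR called 0. DESeq2 called 1 channel gene (Kcnt1, a sodium-activated potassium channel, lower), and over all genes 104 higher and 372 lower. Kcnt1 read 41.9 and 107 normalised counts in WT ES and 18.3 and 28.6 in Taf4a-/- ES, with no overlap (log2 difference -1.51 ± 0.45 (SE) with an adjusted p of 0.206). The median log2 difference was -0.36 for channel genes against -0.003 for all genes, and 67 of 95 were below 0. Fibroblast markers, which feeder cells express, summed to 1424 to 2850 in WT ES and 368 to 763 in Taf4a-/- ES, none of the 7 tested was called, and their part in the lower channel median was not tested.

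Before RA, at EB4, 6 channel genes were called. Kcnk5 was higher in Taf4a-/- and Kcna5, Kcnh2, Kcnh6, Kcnj11 and Kcnk3 were lower, that is 1.05% higher and 5.26% lower, against 2.75% and 3.37% of all genes. The median log2 difference was -0.57 against -0.004 over all genes. Kcnk5, an alkaline-activated two-pore channel of epithelia, read 835 and 529 in WT and 1655 and 2132 in Taf4a-/- (log2 difference 1.50 ± 0.29 (SE) with an adjusted p of 0.0158). Kcnh2, the erg channel that repolarises the heart, read 355 and 490 in WT and 241 and 172 in Taf4a-/- (-1.03 ± 0.27 (SE) with an adjusted p of 0.0448). Its relative Kcnh6 read 445 and 652 in WT and 217 and 169.7 in Taf4a-/- (-1.48 ± 0.28 (SE) with an adjusted p of 0.0136). For these 3 genes the values of the genotypes did not overlap, as for 59 of the 95 channel genes at EB4. At ES, where none was called, this held for 29 of 95. The share of all genes without overlap between genotypes was not counted, so these counts describe nothing particular to the channel genes.

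Lower still in level at EB4, Kcnj11, the pore of ATP-sensitive potassium channels, read 36.2 and 51.5 in WT and 15.2 and 12.8 in Taf4a-/- (-1.56 ± 0.42 (SE) with an adjusted p of 0.0486). Kcna5, a delayed rectifier of atrial muscle, read 27.4 and 33.2 in WT and 8.2 and 6.4 in Taf4a-/- (-1.92 ± 0.52 (SE) with an adjusted p of 0.0486). Kcnk3, an acid-sensitive two-pore channel, read 14.2 and 13.9 in WT and 0 and 0 in Taf4a-/- (-3.92 ± 0.79 (SE) with an adjusted p of 0.0175), and with both Taf4a-/- libraries at 0 it was at least 3.85-fold lower, taking 3 reads per library as the floor. Leaving out a library lost 4 of the 6 calls (WT EB4 replicate 1), 6 (WT EB4 replicate 2), 2 (Taf4a-/- EB4 replicate 1) or 6 (Taf4a-/- EB4 replicate 2), with adjusted p of 0.0664 to 0.333, and a fit of only these 2 groups called 0. That fit of only the 2 EB4 groups called 0 of all 16124 genes, and each fit without 1 library also called fewer of all genes. At EB4 pluripotency markers summed to 30510 to 57055 in WT and 84660 to 111564 in Taf4a-/- (3 of 8 higher), and progenitor markers to 11271 to 12666 and 3516 to 5689 (1 of 7 lower), and their part in the channel differences was not tested.

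After the first day of RA, at EB5, Kcnk5 alone was called. It read 571 and 462 in WT and 1061 and 1408 in Taf4a-/- (1.25 ± 0.29 (SE) with an adjusted p of 0.036), which makes 1.05% of channel genes higher and 0.00% lower, against 2.17% and 2.17% of all genes. The call was lost without Taf4a-/- EB5 replicate 1, Taf4a-/- EB5 replicate 2, WT EB5 replicate 1 or WT EB5 replicate 2 (adjusted p 0.0536 to 0.346), although the genotypes did not overlap. Of the 95 channel genes, 56 did not overlap between genotypes at EB5, and the share over all genes was not counted. The median log2 difference at EB5 was -0.35, against -0.008 over all genes.

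At EB8 the number of channel genes called was higher than at any earlier stage. In Taf4a-/- EB8, 19 of 95 channel genes were lower (20.0%, against 12.5% of all genes tested) and 9 were higher (9.47%, against 10.4%), with a median log2 difference of -0.15 against -0.029 for all genes. Voltage-gated potassium channel pores counted 7 lower and 3 higher of 32, calcium channel pores 3 lower of 9 and their auxiliary subunits 3 lower and 1 higher of 12, and sodium channel pores 2 lower of 6. Without the members on chromosomes 8, 11 and X the count was 16 lower and 7 higher, and DESeq2 called 23 and 9. Over all genes, DESeq2 called 2528 lower and 2098 higher, and each fit without 1 library called fewer than the main fit. Leaving out a library lowered the count from 28 to 12 (WT EB8 replicate 2), 16 (Taf4a-/- EB8 replicate 1), 18 (Taf4a-/- EB8 replicate 2) or 19 (WT EB8 replicate 1). Of the 28 calls, 10 held in all 4 of these fits and 18 were lost in at least 1.

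Neural markers were lower in the same libraries. At EB8 all 8 neuronal markers tested were lower in Taf4a-/- (median log2 difference -4.72), 6 of 7 neural progenitor markers were lower (-4.58), 7 of 8 pluripotency markers were higher (3.46), and Slc17a6, the vesicular transporter of glutamatergic neurons, was at or near 0 in both genotypes. Of the other markers tested at EB8, none of 7 for fibroblasts was called, 1 of 8 for cardiac and smooth muscle was higher and 2 were lower, 2 of 5 for endoderm were lower, and 1 of 6 for astrocytes and oligodendrocytes was lower. In these bulk samples, fewer cells of a type and less RNA per cell cannot be told apart. How much of each channel difference follows from the share of neural cells was not tested.

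**Figure D2:**
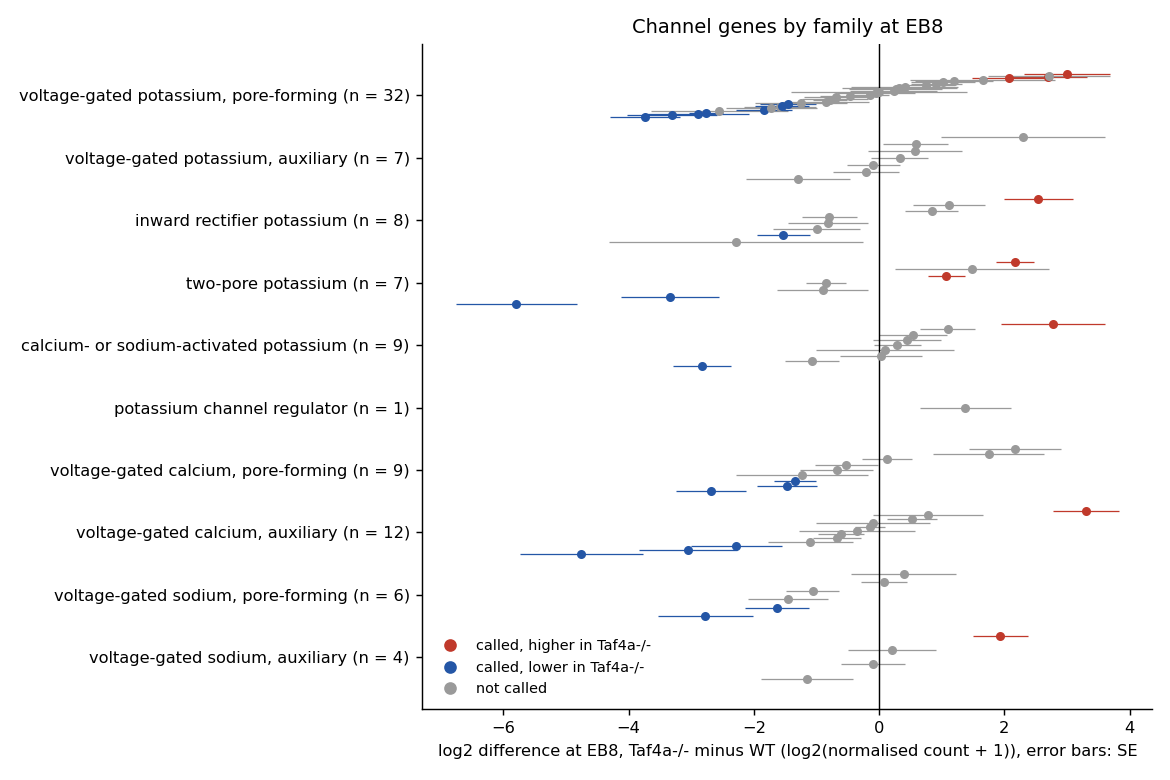
Log2 difference between Taf4a-/- and WT at EB8 (horizontal axis) for the 95 channel genes tested, 1 point per gene with its SE, grouped by family. Of the 28 genes called, 19 lie to the left of 0 (lower in Taf4a-/-), down to -5.79 for Kcnk10, and 9 to the right, up to 3.30 for Cacng6.

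Since Taf4a acts at promoters, the 120 bases before the start of 6 channel genes are shown, namely the 3 largest falls and the 3 largest rises at EB8 among genes with 1 row and 1 annotated start (RefSeq starts, GRCm38.p6, placed on NCBI37). The stretches lie at Cacna2d3 chr14:30535051-30535170 (minus strand), Kcnc1 chr7:53651718-53651837 (plus strand), Kcnh2 chr5:23835410-23835529 (minus strand), Cacng6 chr7:3425303-3425422 (plus strand), Kcnc4 chr3:107261817-107261936 (minus strand) and Kcnn4 chr7:25155162-25155281 (plus strand). In 5 of the 6 the RefSeq start lies within 29 bases of the start of the gene in the annotation used here for positions. That of Kcnh2 lies 22013 bases inside the annotated gene, so its stretch precedes an internal start and not the annotated one. They are written 5' to 3' on the strand of the gene, with GGGCGG or its reverse complement CCGCCC, the core of a GC box, in capitals.
Cacna2d3: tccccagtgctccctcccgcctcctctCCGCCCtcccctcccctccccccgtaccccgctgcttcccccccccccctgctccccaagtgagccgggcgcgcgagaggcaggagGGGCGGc
Kcnc1: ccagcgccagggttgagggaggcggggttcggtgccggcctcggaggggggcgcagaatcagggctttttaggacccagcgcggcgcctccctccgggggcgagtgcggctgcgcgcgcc
Kcnh2: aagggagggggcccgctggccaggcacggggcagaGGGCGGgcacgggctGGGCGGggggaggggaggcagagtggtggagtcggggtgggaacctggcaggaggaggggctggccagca
Cacng6: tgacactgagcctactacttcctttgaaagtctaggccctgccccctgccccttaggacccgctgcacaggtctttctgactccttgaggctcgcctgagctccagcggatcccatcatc
Kcnc4: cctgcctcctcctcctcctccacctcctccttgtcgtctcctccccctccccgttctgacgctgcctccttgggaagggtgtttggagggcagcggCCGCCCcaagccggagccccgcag
Kcnn4: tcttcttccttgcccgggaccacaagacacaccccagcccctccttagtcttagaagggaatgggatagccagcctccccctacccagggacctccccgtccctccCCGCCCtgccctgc
Cacna2d3 and Kcnh2 each held 2 matches, Kcnc4 and Kcnn4 each 1, and Kcnc1 and Cacng6 none, and the letters TATAAA were in none of the 6. In the 250 bases before the start, searched on both strands, GGGCGG stood in 35.4% of 27025 genes with a RefSeq promoter, in 58.3% of the 96 of 131 channel gene names that matched, and in 65.7% of the 67 tested channel genes that matched. Of the genes lower in Taf4a-/- at EB8 it stood in 10 of the 11 that matched, and of those higher in 3 of 5. TATAAA stood in 14.3% of all genes, in 4 of the 96 channel genes and in 0 of the 16 called genes that matched, and the median GC content was 52.4% over all genes and 60.0% over channel genes. A match describes these letters in this window, and nothing about binding was measured. Whether RefSeq starts lie at the annotated starts was looked at for the 6 printed genes only.

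Among voltage-gated potassium channels, 7 were lower and 3 higher in Taf4a-/- EB8. Kcnc1 read 253 and 288 normalised counts in WT EB8 and 24.3 and 28.8 in Taf4a-/- EB8 (log2 difference -3.31 ± 0.71 (SE) with an adjusted p of 0.00627). Kcnh2 read 1479 and 2000 in WT and 293 and 216 in Taf4a-/- (-2.77 ± 0.27 (SE) with an adjusted p of 5.92e-05). The genotypes did not overlap in either gene, and both calls held whichever library was left out. Kcnh8, an Elk-type channel, has 2 rows that lie apart on chromosome 17, and the first (chr17:52865084-53044561) read 10.5 and 19.1 in WT and 3.2 and 0 in Taf4a-/- (-2.90 ± 0.81 (SE) with an adjusted p of 0.0225), a ratio of reads of 9.28 (exact 95% interval 2.87 to 47.7). The call of this row was lost without Taf4a-/- EB8 replicate 2 or WT EB8 replicate 2 (adjusted p 0.131 to 0.18). Kcnh4 read 36.8 and 72 in WT and 15.8 and 11.7 in Taf4a-/- (-1.84 ± 0.45 (SE) with an adjusted p of 0.0111). Kcnq5, an M-current subunit, read 175 and 162 in WT and 55.9 and 66 in Taf4a-/- (-1.46 ± 0.45 (SE) with an adjusted p of 0.0358). Both differences were smaller. The call of Kcnh4 was lost without Taf4a-/- EB8 replicate 2 or WT EB8 replicate 2 (adjusted p 0.0688 to 0.107), and that of Kcnq5 without any 1 of the 4 EB8 libraries (adjusted p 0.0924 to 0.152).

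Two-pore channels moved both ways at EB8. Kcnk10 read 78.8 and 119.6 in WT and 0 and 2.1 in Taf4a-/- (-5.79 ± 0.97 (SE) with an adjusted p of 0.00142), a ratio of reads of 93.5 (exact 95% interval 25.5 to 778) with 2 reads in Taf4a-/- EB8. Kcnk3 read 29.4 and 64.6 in WT and 1.1 and 8.5 in Taf4a-/- (-3.34 ± 0.79 (SE) with an adjusted p of 0.00977). The call of Kcnk3 was lost without Taf4a-/- EB8 replicate 1 or WT EB8 replicate 2 (adjusted p 0.0841 to 0.0957). In the other direction, Kcnk6 read 107 and 126 in WT and 637 and 436 in Taf4a-/- (2.17 ± 0.30 (SE) with an adjusted p of 0.000482). Kcnk5 read 594 and 455 in WT and 1093 and 1099 in Taf4a-/- (1.07 ± 0.29 (SE) with an adjusted p of 0.0199). It was the one channel gene called at EB4, EB5 and EB8 alike, and its EB8 call was lost without Taf4a-/- EB8 replicate 1, Taf4a-/- EB8 replicate 2 or WT EB8 replicate 2 (adjusted p 0.0794 to 0.135). None of the 4 genes overlapped between genotypes at EB8, where 62 of the 95 channel genes did not overlap. The share over all genes was not counted.

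Of the calcium and sodium channel genes called at EB8, 8 were lower and 2 were higher. Cacna2d3 read 265 and 427 in WT and 6.3 and 20.2 in Taf4a-/- (-4.76 ± 0.98 (SE) with an adjusted p of 0.00484). Cacnb2, a beta subunit, read 185 and 150.3 in WT and 12.7 and 28.8 in Taf4a-/- (-3.06 ± 0.79 (SE) with an adjusted p of 0.0153). The call of Cacnb2 was lost without Taf4a-/- EB8 replicate 1, WT EB8 replicate 1 or WT EB8 replicate 2 (adjusted p 0.0621 to 0.11). Cacna1c read 189 and 152 in WT and 19 and 34.1 in Taf4a-/- (-2.69 ± 0.56 (SE) with an adjusted p of 0.00504), and its call held whichever library was left out. The other lower members of these families were smaller in effect or more variable. Cacna1b, the N-type channel of presynaptic terminals, read 298 and 580.2 in WT and 157 and 169 in Taf4a-/- (-1.34 ± 0.34 (SE) with an adjusted p of 0.0132). Cacna1h read 1198 and 1342 in WT and 648 and 324 in Taf4a-/- (-1.47 ± 0.48 (SE) with an adjusted p of 0.0445). Cacng4, a subunit that also serves AMPA receptors, read 394 and 576 in WT and 119 and 78.8 in Taf4a-/- (-2.28 ± 0.73 (SE) with an adjusted p of 0.0401). Scn3a, a sodium channel known from embryonic brain, read 421 and 624 in WT and 59.1 and 92.7 in Taf4a-/- (-2.77 ± 0.76 (SE) with an adjusted p of 0.0202). None of these 4 overlapped between genotypes. The call of Cacna1h was lost with no filter, under upper-quartile rescaling, under quantile normalisation and with edgeR. That of Cacng4 was lost with no filter and under upper-quartile rescaling, and that of Cacna1b in the fit of only the compared groups. Scn3a kept its call under these changes. Each of the 4 calls was lost in at least 2 of the 4 fits that left out a library (adjusted p 0.0505 to 0.276). Above the WT values instead lay Cacng6, at 114 and 103 against 13.7 and 7.4 (3.30 ± 0.53 (SE) with an adjusted p of 0.00114).

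Calcium-activated and inward rectifier channels each gave 1 gene higher and 1 lower. Kcnn1 read 740.3 and 424 in WT EB8 and 100.2 and 60.7 in Taf4a-/- EB8 (-2.83 ± 0.47 (SE) with an adjusted p of 0.00132). Kcnn4 read 3.2 and 1.1 in WT and 11.6 and 30.9 in Taf4a-/- (2.78 ± 0.83 (SE) with an adjusted p of 0.0311). Its WT EB8 libraries held 3 and 1 reads, not above the floor, so the size of this log2 difference depends on the pseudocount. The call of Kcnn4 was lost with a pseudocount of 5, with no filter, under quantile normalisation and in the fit of only the compared groups. Kcnj12, a strong inward rectifier, read 42 and 56.1 in WT and 330.2 and 249 in Taf4a-/- (2.54 ± 0.55 (SE) with an adjusted p of 0.00632). Kcnj11 read 55.7 and 63.5 in WT and 16.9 and 23.4 in Taf4a-/- (-1.53 ± 0.42 (SE) with an adjusted p of 0.0206). Of these 4, Kcnn1 and Kcnj12 kept their calls with each library left out. Kcnn1 lies on chromosome 8, and its highest EB8 value was in WT EB8 replicate 1, a library of high chromosome 8 level. Kcnj12 lies on chromosome 11, and its highest EB8 value was in Taf4a-/- EB8 replicate 1, a library of high chromosome 11 level. Kcnn4 lost its call without Taf4a-/- EB8 replicate 2, WT EB8 replicate 1 or WT EB8 replicate 2 (adjusted p 0.0538 to 0.19), and Kcnj11 without Taf4a-/- EB8 replicate 1, WT EB8 replicate 1 or WT EB8 replicate 2 (adjusted p 0.0649 to 0.124).

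The remaining voltage-gated potassium channels that were higher in Taf4a-/- EB8 were Kcnh3, Kcnc4 and Kcnd1. Kcnh3 read 1.1 and 5.3 in WT and 27.4 and 18.1 in Taf4a-/- (2.70 ± 0.62 (SE) with an adjusted p of 0.00865). Kcnc4 read 16.8 and 8.5 in WT and 124 and 85.2 in Taf4a-/- (3.00 ± 0.69 (SE) with an adjusted p of 0.00853). Kcnd1, an A-type channel on chromosome X, read 158 and 134 in WT and 414 and 908 in Taf4a-/- (2.07 ± 0.58 (SE) with an adjusted p of 0.023), with the highest value in Taf4a-/- EB8 replicate 2, one of the libraries of high chromosome X level. Although no values overlapped, each of the 3 calls was lost without at least 1 library. Kcnh3 lost its call without Taf4a-/- EB8 replicate 1 or WT EB8 replicate 1 (adjusted p 0.0639 to 0.0786), Kcnc4 without Taf4a-/- EB8 replicate 1 or WT EB8 replicate 2 (adjusted p 0.062 to 0.0736) and Kcnd1 without Taf4a-/- EB8 replicate 2, WT EB8 replicate 1 or WT EB8 replicate 2 (adjusted p 0.0718 to 0.169).

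**Figure D3:**
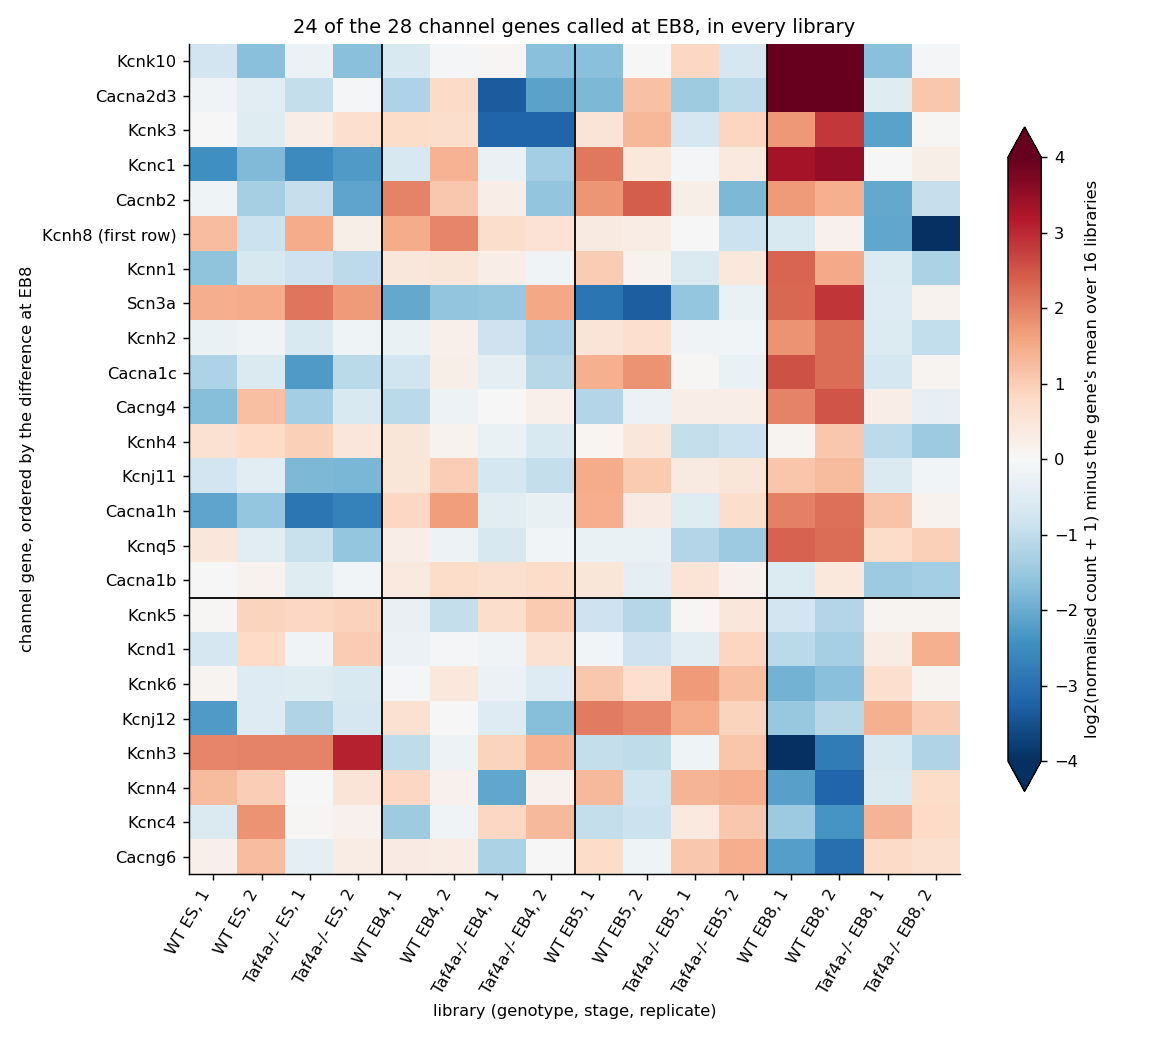
Of the 28 channel genes called at EB8, 24 (rows, ordered by the difference between genotypes) are drawn in every library (columns, by stage). Colour gives log2(normalised count + 1) minus the mean of the gene over 16 libraries, with the scale ending at 4 and -4. The upper 16 genes are mostly red in the WT EB8 columns, led by Kcnk10 and Cacna2d3, and the lower 8 are blue there.

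Channel genes also changed along the course without Taf4a. In Taf4a-/- cells 21 of 95 channel genes rose from ES to EB8 (22.1%, against 19.7% of all genes) and 11 fell (11.6%, against 18.0%), with a median log2 change of 0.42 against 0.018, and under quantile normalisation 13 rose and 20 fell. Over all genes, quantile normalisation called 2800 higher and 2898 lower, against 3174 and 2899 in the main fit. Leaving out a library lowered the count from 32 to between 19 (without Taf4a-/- EB8 replicate 2) and 27, and to 20 without Taf4a-/- ES replicate 1. No library is shared between the changes of the genotypes: 11 channel genes rose in both (11.6%, against 13.2% of all genes), 4 fell in both (4.21%, against 11.4%) and 1, Kcnk6, fell in WT and rose in Taf4a-/- (1.05%, against 0.291%). By their mean levels, 29 of 95 channel genes were highest at EB5 in WT (30.5%, against 12.9% of all genes) and 40 in Taf4a-/- (42.1%, against 17.6%). Those highest at EB8 numbered 28 in WT (29.5%, against 33.3%) and 21 in Taf4a-/- (22.1%, against 32.3%), and these shares were not tested.

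The largest rises in Taf4a-/- cells included 4 of the channels above. Kcnd3 went from 0.8 and 5 to 53.8 and 51.1 (4.01 ± 0.72 (SE) with an adjusted p of 0.00125). Cacna1h went from 39 and 43.6 to 648 and 324 (3.44 ± 0.48 (SE) with an adjusted p of 0.000286). Kcnh1, an eag-type channel, went from 20.8 and 19.3 to 83.4 and 130 (2.32 ± 0.52 (SE) with an adjusted p of 0.00463). Those 3 calls held with each library left out, and no ES value reached an EB8 value. Kcnj2 went from 7.5 and 5.7 to 30.6 and 114 (3.00 ± 0.69 (SE) with an adjusted p of 0.00532). The call of Kcnj2 was lost without Taf4a-/- EB8 replicate 2 (adjusted p 0.0651). Kcnd2, an A-type channel of dendrites, went from 3.3 and 1.4 to 21.1 and 54.3 (3.43 ± 0.92 (SE) with an adjusted p of 0.0115). Kcnd2 would not have reached the mean of 10 needed for a test without these EB8 libraries. Its rise is thus not independent of that filter, although with no filter it was still called. The call of Kcnd2 was lost without Taf4a-/- EB8 replicate 2 or Taf4a-/- ES replicate 2 (adjusted p 0.079 to 0.0929). Kcnc1 still rose, from 3.3 and 4.3 to 24.3 and 28.8 (2.52 ± 0.71 (SE) with an adjusted p of 0.0156). The call of Kcnc1 was lost without Taf4a-/- EB8 replicate 1, Taf4a-/- EB8 replicate 2, Taf4a-/- ES replicate 1 or Taf4a-/- ES replicate 2 (adjusted p 0.051 to 0.0811). Cacna1s, the L-type channel of skeletal muscle, rose from 7.5 and 13.6 to 62.2 and 94.8 (2.81 ± 0.74 (SE) with an adjusted p of 0.0106). The call of Cacna1s was lost without Taf4a-/- EB8 replicate 2 or Taf4a-/- ES replicate 1 (adjusted p 0.0684 to 0.0802). Kcng1, a silent subunit, went from 34 and 42.9 to 288 and 116 (2.23 ± 0.51 (SE) with an adjusted p of 0.005). The call of Kcng1 was lost without Taf4a-/- EB8 replicate 1 (adjusted p 0.057).

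Falls in Taf4a-/- cells were led by Kcnj9, which went from 19.1 and 20 to 0 in both EB8 libraries (-4.36 ± 0.64 (SE) with an adjusted p of 0.000389), at least 6.14-fold lower with 3 reads per library as the floor. The first row of Kcnh8 went from 49 and 20 to 3.2 and 0 (-3.99 ± 0.81 (SE) with an adjusted p of 0.00259), a ratio of reads of 21 (exact 95% interval 6.96 to 104). The second row (chr17:53093281-53121602) went from 44 and 5.7 to 3.2 and 0 (-3.09 ± 1.09 (SE) with an adjusted p of 0.0416), a ratio of 14.7 (4.81 to 73.4). Kcnh3 fell from 174 and 370.2 to 27.4 and 18.1 (-3.45 ± 0.62 (SE) with an adjusted p of 0.00125). Calls of Kcnj9, the first Kcnh8 row and Kcnh3 held with each library left out, and the second Kcnh8 row lost its call without Taf4a-/- EB8 replicate 2 or Taf4a-/- ES replicate 1 (adjusted p 0.258 to 0.335). Scn3a went from 373 and 275 to 59.1 and 92.7 (-2.10 ± 0.76 (SE) with an adjusted p of 0.046). The call of Scn3a was lost without Taf4a-/- EB8 replicate 1, Taf4a-/- EB8 replicate 2, Taf4a-/- ES replicate 1 or Taf4a-/- ES replicate 2 (adjusted p 0.0829 to 0.189). Kcnh4, an Elk-type channel, went from 67.2 and 46.5 to 15.8 and 11.7 (-1.96 ± 0.45 (SE) with an adjusted p of 0.00484). The call of Kcnh4 was lost without Taf4a-/- ES replicate 1 (adjusted p 0.0512).

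**Figure D4:**
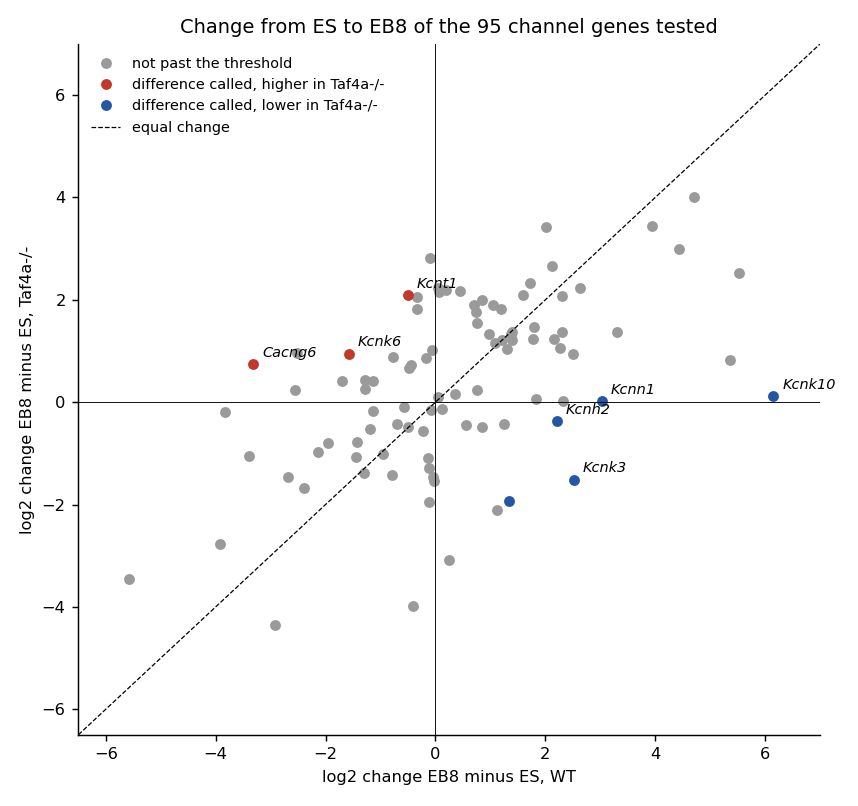
Log2 change from ES to EB8 in WT (horizontal axis) and in Taf4a-/- (vertical axis) for the 95 channel genes tested, 1 point per gene, with the line of equal change dashed. The 8 coloured points are genes whose change differed between genotypes, and 7 of them are named: Kcnk10 rose by 6.15 in WT and changed by 0.12 in Taf4a-/-, and Kcnk6 lies on opposite sides of 0.

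The difference between these changes was itself tested. It passed the threshold for 8 channel genes, 3 higher in Taf4a-/- (3.16%, against 3.85% of all genes) and 5 lower (5.26%, against 3.44%), under upper-quartile rescaling for 5 higher and 4 lower, and with the replicate number as a block within each genotype for 8 higher and 8 lower. Over all genes the rescaling called 908 higher and 424 lower and the block 1155 and 1001, against 620 and 555 in the main fit. Kcnh2 read 354 and 387 in WT ES and 279 and 380.2 in Taf4a-/- ES, and its log2 change to EB8 was 2.21 ± 0.27 (SE) in WT and -0.37 ± 0.27 (SE) in Taf4a-/- (difference -2.58 ± 0.38 (SE) with an adjusted p of 0.00366). Cacng6 fell in WT (-3.32 ± 0.53 (SE)) while its change in Taf4a-/- was 0.74 ± 0.53 (SE) (difference 4.06 ± 0.75 (SE) with an adjusted p of 0.00922). Kcnk6 changed by -1.58 ± 0.30 (SE) and 0.95 ± 0.30 (SE) (difference 2.53 ± 0.43 (SE) with an adjusted p of 0.00569). These 3 genes held the call with each of the 8 libraries left out. Kcnt1 read 57.8 and 38.1 in WT EB8 and 97.1 and 106 in Taf4a-/- EB8, and its change was -0.50 ± 0.45 (SE) in WT and 2.10 ± 0.45 (SE) in Taf4a-/- (difference 2.60 ± 0.63 (SE) with an adjusted p of 0.0294). Kcnk10, Kcnn1, Kcnk3 and Kcnt1 lost the call in 4 to 7 of those fits (adjusted p 0.0503 to 0.156). The number of channel genes called ran from 3 (without Taf4a-/- ES replicate 1) to 11 (without WT ES replicate 1), with 5 each without WT EB8 replicate 2, Taf4a-/- ES replicate 2, Taf4a-/- EB8 replicate 1 or Taf4a-/- EB8 replicate 2 and 7 without WT ES replicate 2.

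Scn3a, chosen after its values were seen, was lowest between the ends of the course. In WT it read 231 and 240 in ES, 19.7 and 27.9 in EB4, 10.4 and 7.7 in EB5 and 421 and 624 in EB8. In Taf4a-/- it read 373 and 275 in ES, 29.2 and 249 in EB4, 28.4 and 70.8 in EB5 and 59.1 and 92.7 in EB8. The WT values were lowest at EB5 and highest at EB8, whereas the Taf4a-/- EB8 values lay below those of Taf4a-/- ES, and the WT change from ES to EB8 did not pass the threshold (1.12 ± 0.76 (SE) with an adjusted p of 0.245). At EB4 and EB5 no Taf4a-/- value was as low as a WT value, but the log2 differences (1.83 ± 0.76 (SE) and 2.21 ± 0.76 (SE)) did not pass the threshold (adjusted p 0.174 and 0.121).

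**Figure D5:**
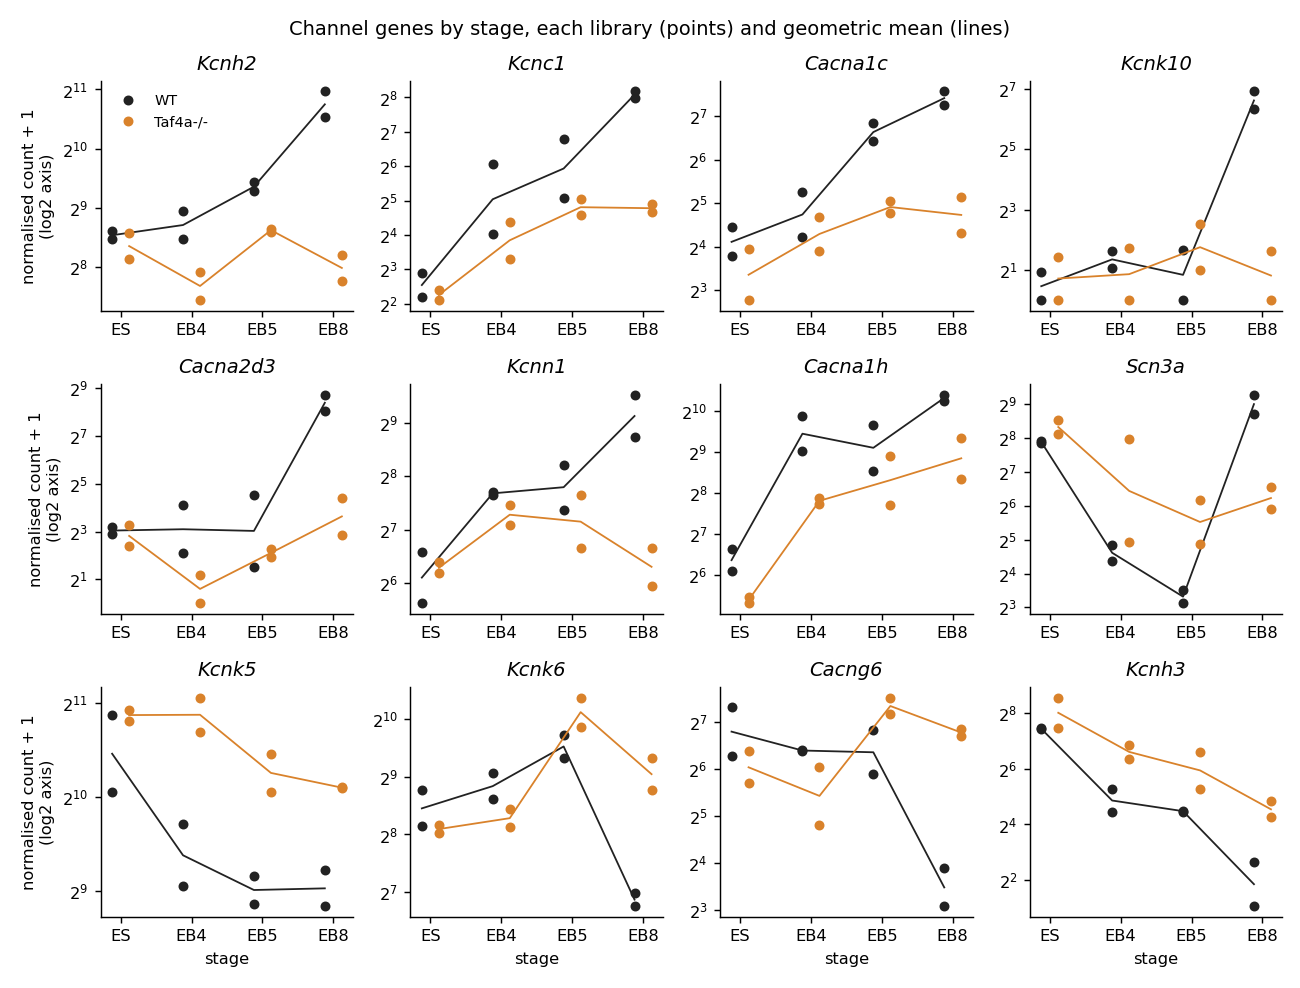
Normalised count + 1 (vertical axis, log2 scale, each panel with its own range) of 12 channel genes at each stage (horizontal axis), with 1 point per library and lines through the geometric mean of 2 libraries. All 12 genes were drawn from those called at EB8, so WT (black) and Taf4a-/- (orange) lie apart there by choice of the genes. At EB8, 8 genes lie higher in WT and Kcnk5, Kcnk6, Cacng6 and Kcnh3 lie higher in Taf4a-/-. Kcnk5 was also called at EB4 and EB5, and Kcnh2 at EB4.

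Some rows need care, and these were singled out after their values were seen. Scn8a, the sodium channel of the axon initial segment, has 2 rows whose changes in WT have opposite signs. The longer row (chr15:100785829-100876360) read 48.2 and 164 in WT ES and 357 and 523 in WT EB8 (2.26 ± 0.43 (SE) with an adjusted p of 0.0011), and a shorter row upstream (chr15:100763860-100771229, 1072 exon bases) read 60.1 and 70.2 in ES and 25.2 and 43.4 in EB8 (-0.95 ± 0.37 (SE) with an adjusted p of 0.0491). Kcnj3, a G protein-gated inward rectifier, read 2842 in WT EB4 replicate 1 and 20.4 in replicate 2, and 590.0 and 8.8 in the EB5 libraries, against at most 16.8 elsewhere. Its exons share 1621 bases with the lincRNA Gm17595 on the other strand, the kit does not mark strand, and Gm17595 itself read 91.0 and 2.1 in WT EB4. The high values thus belong to 1 library of each group, and no call was made for Kcnj3 by limma.

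The 39 rows left untested reached at most 39 reads in any library. They included Scn4a, Scn7a, Scn10a and Scn11a (sodium channels of muscle, glia and sensory neurons), the subunits Kcne1, Kcne2, Kcne3 and Kcne4 (which modify other potassium channels), 7 inward rectifiers, 7 two-pore channels and both rows of Kcnb2. Among these two-pore channels, Kcnk9 read 8.4 and 14.8 in WT EB8 and at most 1.1 in the other libraries. With no filter on low values 18 channel genes were lower and 8 higher at EB8, against 1954 and 1652 of all 27807 genes.

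Other genes of excitable membranes were followed from a list of 23 (other cation channels, channel-anchoring and auxiliary proteins, and the repressor Rest with its corepressor Rcor1), of which 20 were tested. At EB8, 8 were lower in Taf4a-/- and 2 were higher, with a median log2 difference of -1.34, and from ES to EB8 in WT 10 rose and 1 fell. Unc79, a subunit of the sodium leak channel complex, read 151 and 206 in WT EB8 and 11.6 and 9.6 in Taf4a-/- EB8 (-3.94 ± 0.49 (SE) with an adjusted p of 0.000245). Hcn3, a pacemaker channel, read 151 and 238 in WT and 52.8 and 29.8 in Taf4a-/- (-2.23 ± 0.41 (SE) with an adjusted p of 0.00248). Nalcn, the leak channel itself, was higher, at 63 and 46.6 in WT and 155 and 308 in Taf4a-/- (1.99 ± 0.48 (SE) with an adjusted p of 0.0109). The pore and its partner thus differed in opposite directions. Rest, which represses neuronal genes in cells that are not neurons and is known to bind channel genes, read 8999.7 and 9869 in WT ES, 7467 and 6411 in EB4, 4795 and 4514 in EB5 and 2338 and 2428 in EB8. In Taf4a-/- cells it read 10542 and 10963 in ES, 9295 and 13157 in EB4, 6748 and 7699 in EB5 and 4444 and 4135 in EB8. It fell in both genotypes and was higher in Taf4a-/- at EB4 (0.68 ± 0.16 (SE) with an adjusted p of 0.034), EB5 (0.63 ± 0.16 (SE) with an adjusted p of 0.0497) and EB8 (0.85 ± 0.16 (SE) with an adjusted p of 0.00329). The EB4 call of Rest was lost in the fit of only the compared groups. Its EB4 and EB5 calls were also lost when Taf4a-/- replicate 2 of the stage was left out.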

How the data were processed

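Per the labels and the study's methods, poly(A) RNA was made into libraries with a kit that does not mark strand and sequenced as single 54 base reads. The submitters' processing notes name CASAVA 1.7 and 1.8, TopHat2 2.0.10, HTSeq 0.5.4p3 and DESeq2 1.0.19, and the build is NCBI37 (mm9). The authors deposited a signal per gene (counts divided by DESeq2 size factors), and 100.0% of them came out as whole reads at a tolerance of 0.01, which gave the depth (22442118 to 40711826 reads). Gene positions were taken from GENCODE (27603 of 27807 identifiers found). Here log2(value + 1) of genes with a mean of at least 10 was tested with limma 3.58.1 (R 4.3.3) over 8 group means and 16 libraries, with Benjamini-Hochberg adjustment and a threshold of 0.05. The recovered reads were also tested with edgeR 4.0.16 and DESeq2 1.42.0, and the limma step was tested on simulated data. Libraries were grouped by the genotype and stage in the labels. Reads of exons that overlap a gene on the other strand (Cacna1a, Cacna1d, Cacna1h, Cacnb2, Kcnd3, Kcnq5 and others) cannot be told apart from that gene's. Named are the 8 largest rises and 8 largest falls past the threshold in each comparison, all genes called at EB4 or EB8, and the 5 highest levels per kb of exon in WT ES and WT EB8, except that some genes counted in the totals are not reported here by name. The members and gene lists were chosen with earlier results of these data known. Alternatives changed the pseudocount, the filter, the scaling, the groups fitted, the replicate block, the tool and the libraries kept. Intervals and floors cover counting error only.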

Additional observations from a re-analysis of the deposited data

Results flagged for a closer look

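For 8 channel genes the change from ES to EB8 differed between genotypes by limma's test of the difference itself (Benjamini-Hochberg adjusted p under 0.05 over all genes tested). As Taf4a-/- minus WT on the log2 scale, those of 7 were -6.03 for Kcnk10 (adjusted p 0.0224), -4.04 for Kcnk3 (0.047), -3.01 for Kcnn1 (0.0193), -2.58 for Kcnh2 (0.00366), 2.53 for Kcnk6 (0.00569), 2.60 for Kcnt1 (0.0294) and 4.06 for Cacng6 (0.00922). Kcnk10 and Kcnk3 passed the filter on the mean only through WT EB8, so their differences are not independent of it. With no filter, Kcnk10 kept this call and Kcnk3 lost it. The calls of Kcnh2, Kcnk6 and Cacng6 held with each library left out, and those of the other 4 named genes were lost at least once.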

How the results depend on the processing

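Of the counts of channel genes called, those at EB8 and of the changes from ES to EB8 in WT and in Taf4a-/- stayed within 1.5 times under every change of pseudocount, filter, scaling, groups fitted, block and tool. Single calls held less well. Over the single-gene calls followed in all comparisons, 22 missed the threshold with only the compared groups fitted and 12 with no filter. A further change lost 7 with edgeR, 7 under upper-quartile rescaling, 6 under quantile normalisation and 3 with a pseudocount of 5. At ES, DESeq2 called 1. At EB4 the count of 6 became 3 with no filter, 0 with only the compared groups and 14 with DESeq2. At EB5 the count of 1 became 2 with a pseudocount of 5, 0 with no filter, 0 with only the compared groups and 5 with DESeq2. The difference between genotypes, called for 8, was called for 13 under quantile normalisation and 16 with DESeq2. Over all genes the number called moved the same way in each of these cases. With 1 library left out the counts ran from 0 to 0 (ES), 0 to 6 (EB4), 0 to 1 (EB5), 12 to 19 (EB8), 29 to 39 (WT, EB8 against ES), 19 to 27 (Taf4a-/-, EB8 against ES) and 3 to 11 (difference), and these fits test fewer samples. Over all genes, each fit without 1 library also called fewer at EB4, EB5 and EB8 and for both changes from ES to EB8. The cause of the other shifts was not tested. Over single genes, 900 results kept direction and side of the threshold and 182 kept direction but missed it. With the replicate number as a block the counts were 0, 9, 2, 29, 43, 32 and 10 in the same order. Libraries of 1 number deviated together along much of the course of a genotype, over 16124 genes: the correlations were 0.523 to 0.605 among WT EB4, EB5 and EB8 and 0.233 to 0.422 among the Taf4a-/- stages, but -0.179 to -0.048 between WT ES and the later WT stages. Between genotypes at 1 stage they were 0.335 (ES), -0.058 (EB4), -0.209 (EB5) and -0.133 (EB8). The labels do not say what a number marks. With the Taf4a-/- numbers exchanged, an alternative chosen after seeing the data, the block gave 0, 7, 1, 30, 41, 36 and 12. With a block of its own in each genotype, also chosen after seeing the data, the counts were 0, 11, 3, 31, 44, 39 and 16, and this fit leaves the spread between numbers out of the error of comparisons between genotypes. Upper-quartile rescaling moved the median of all genes at EB8 from -0.029 to 0.111. Genes under the floor of 3 reads cannot show a fall.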
